A study of Ambystoma mexicanum with 12 samples.

Results

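The genes described here are CP26A, RARB and DHRS3, 3 of the 36917 genes in a count table of axolotl limb blastema mesenchyme. They are the assembled genes MSTRG.7367, MSTRG.14333 and MSTRG.5214, and they were chosen by their role in retinoic acid turnover or sensing and selected on their counts, which were far higher after a retinoid than after its solvent. The comparison of treatments for these genes is therefore a description and carries no test. All 3 passed the count filter that left 25879 genes to be tested, CP26A and RARB through their libraries with the retinoid alone. CP26A and RARB take their names from the proteins that the study matched to their transcripts, chicken CP26A and human RARB, while the reference transcript of DHRS3 carries that symbol itself.

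Total RNA was sequenced from 12 right forelimb blastemas of albino axolotls (Ambystoma mexicanum), with 1 animal and 1 blastema per library. Both forelimbs were amputated through the middle of the forearm, and 24 h later the animals were kept for 5 days in 25 nM Am580, a synthetic agonist selective for retinoic acid receptor alpha, or in an equal volume of its solvent DMSO. Blastemas were collected after a further 24 h without either agent, and the epidermis was removed. The 6 Am580 animals were those whose left limbs later showed the most duplication and the 6 DMSO animals had none, so this choice goes with the treatment.

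Retinoic acid, made from vitamin A, acts by binding nuclear receptors that heterodimerize with retinoid X receptors on DNA. CP26A corresponds to CYP26A1, a cytochrome P450 that oxidizes retinoic acid to inactive products, and DHRS3 is a dehydrogenase/reductase that turns retinaldehyde back into retinol, upstream of retinoic acid. RARB is a retinoic acid receptor. In other vertebrates all of these genes are induced by retinoic acid, so that the enzymes lower the level of the signal that induces them, and exogenous retinoic acid is known for proximalizing the regenerating salamander limb.

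The assembled structures of these genes differed widely in size. On the AmexG_v3.0.0 assembly, CP26A lay on the minus strand of scaffold AMEXG_0030001572 from position 403831 to 409123, as 1 reference transcript of 7 exons and 2168 spliced bases. RARB lay on the plus strand of scaffold AMEXG_0030003875 from 1703794 to 2252675, a span of 548882 bases that held 4 transcripts. Of these, 1 was a reference transcript, and it began 191613 bases downstream of the first base of the assembled gene. DHRS3 lay on the plus strand of scaffold AMEXG_0030001060 from 10711238 to 10789006, with 2 transcripts of 6 exons each and a merged exon length of 3785 bases. Counts were summed over all exons of a gene, so the transcripts of RARB and of DHRS3 are not told apart. No other assembled gene overlapped any of these genes.

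**Figure D1:**
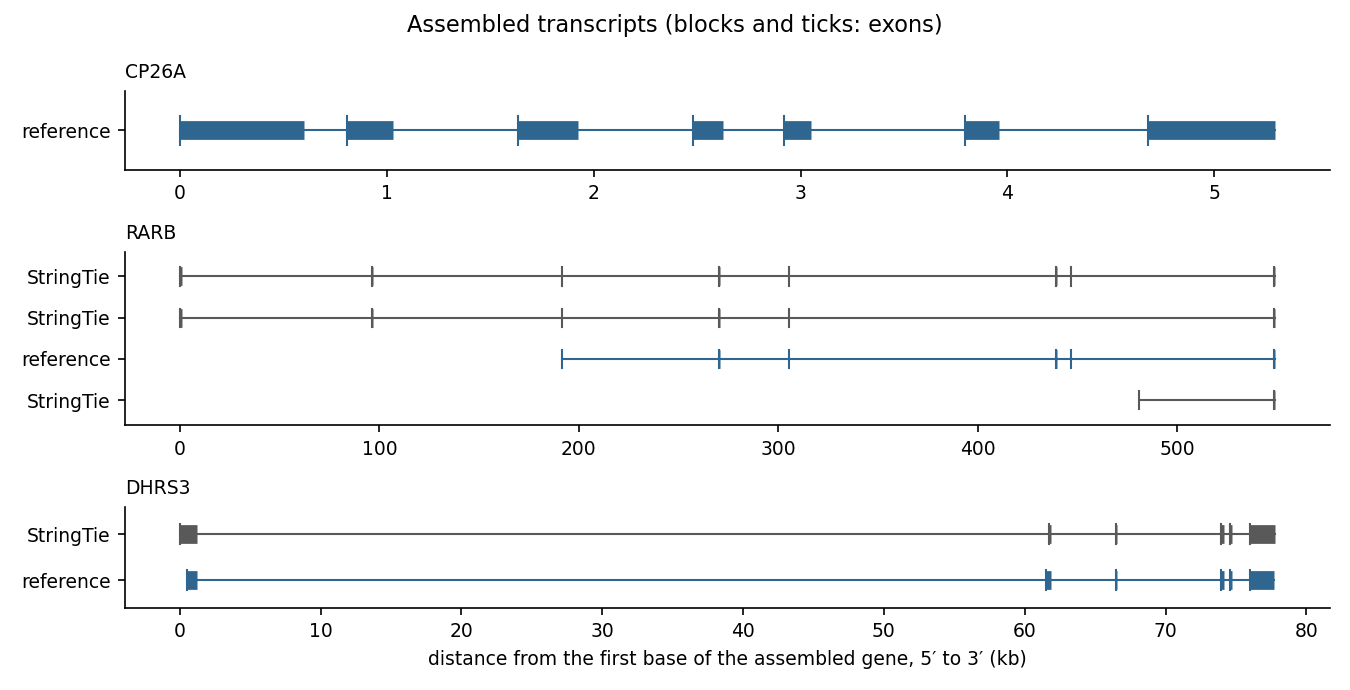
Transcripts of CP26A, RARB and DHRS3 in the merged assembly, with exons as blocks or ticks joined by lines, plotted by distance in kb from the first base of each gene, 5′ to 3′ (a separate scale per gene). Reference transcripts are blue and transcripts assembled by StringTie are grey, and the reference transcript of RARB begins well inside the assembled gene.

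CP26A was not detected in any DMSO library and was abundant in every Am580 library. Its counts were 0 in all 6 DMSO libraries. With Am580 they were 5008, 7614, 8443, 5288, 4071 and 3025 in replicates 1 to 6. Scaled by library size with TMM factors to CPM (counts scaled to a common library total), these were 153, 218, 214, 138, 86.4 and 73.6 CPM, a mean of 147 ± 61.1 (SD, n = 6). Replicates 2 and 3 were the highest and replicates 5 and 6 the lowest. For an observed count of 0 the upper limit was set at 3 counts, or 0.0754 to 0.111 CPM depending on the DMSO library. Against the mean of these limits over the 6 DMSO libraries, 0.0906 CPM, the mean with Am580 was at least 1623-fold higher (10.66 on the log2 scale). The lowest Am580 library was at least 665 times the highest DMSO limit.

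RARB was close to the limit of detection without Am580 and moderately abundant with it. The DMSO libraries held 6, 6, 2, 3, 2 and 3 counts in replicates 1 to 6, and the Am580 libraries 920, 1801, 1616, 1686, 1484 and 1047. The Am580 libraries were at 28.1, 51.5, 40.9, 44.02, 31.5 and 25.5 CPM, a mean of 36.9 ± 10.2 (SD, n = 6), against 0.116 ± 0.0732 CPM (SD, n = 6) with DMSO. Replicate 2 was the highest of the Am580 libraries and replicate 6 the lowest, and even the latter was 115 times the highest DMSO library. The fitted log2 fold change was 8.34 (SE 0.32), and the means differed 318-fold. Since the DMSO value rests on 22 counts in all, the ratio of the summed counts per depth was also computed, at 336 with an exact 95% interval of 222 to 536 that covers counting error only.

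DHRS3, unlike CP26A and RARB, was well expressed in the DMSO libraries. Replicates 1 to 6 held 555, 452, 703, 673, 653 and 645 counts with DMSO and 11069, 11684, 12123, 10641, 12297 and 9880 counts with Am580. The DMSO libraries were at 18.0, 16.7, 20.8, 16.9, 17.1 and 19.9 CPM, a mean of 18.2 ± 1.72 (SD, n = 6). The groups stood far apart, as the Am580 libraries were at 338, 334, 307, 278, 261 and 240.4 CPM, a mean of 293 ± 39.7 (SD, n = 6). The fitted log2 fold change was 4.01 (SE 0.11), the means differed 16.1-fold, and the lowest Am580 library was 11.6 times the highest DMSO library.

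**Figure D2:**
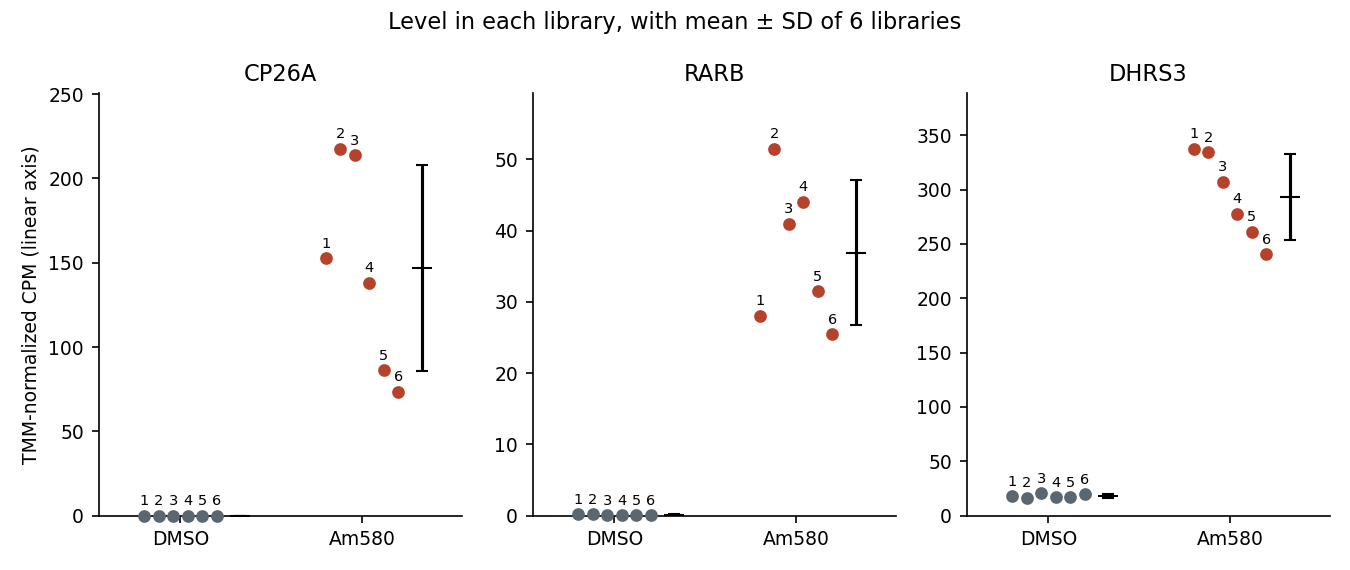
TMM-normalized CPM (y axis, linear, from 0, a separate scale per gene) of CP26A, RARB and DHRS3 in the 6 DMSO and 6 Am580 libraries, each point 1 library numbered by replicate, with the mean ± SD beside each group. Every Am580 library lies above every DMSO library, at 73.6 to 218 CPM for CP26A, 25.5 to 51.5 for RARB and 240.4 to 338 for DHRS3.

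For each of these genes every Am580 library was above every DMSO library, as was so for 3.97% of the 25879 tested genes. By fitted log2 fold change CP26A ranked 1, RARB 3 and DHRS3 43 among the tested genes. The genes were chosen for this rise, so nothing is read from the ranks or from that share. In bulk tissue, a change in the share of cells that express a gene and a change in its RNA per cell cannot be told apart.

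To compare levels between genes, CPM were divided by the merged exon length in kb, and each gene was placed among the 25879 tested genes. The median tested gene was at 2.49 CPM per kb with DMSO and 2.47 with Am580. DHRS3 was already above that median in the DMSO libraries, with a mean level of 4.82 CPM per kb at the 65.9th percentile, and reached 77.4 CPM per kb, the 96.7th percentile, with Am580. CP26A went from 0 to 67.8 CPM per kb, the 96.3rd percentile, which made it rank 951 of the tested genes beside DHRS3 at rank 852. RARB, at 0.0422 CPM per kb and the 0.332nd percentile with DMSO, reached 13.4 CPM per kb and the 84.9th percentile, rank 3915. Every DMSO library held fewer than 10 counts of CP26A and of RARB, so both passed the count filter only through the Am580 libraries. Their place at the bottom with DMSO follows from that and is not read as a result.

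The order of the levels per kb with Am580 was not the same in every library. RARB was the lowest of the 3 genes in each Am580 library. CP26A stood at 0.535 to 1.22 times DHRS3, and it was above DHRS3 in replicates 2 and 3, at ratios of 1.14 and 1.22, and below it in the other 4. CP26A and DHRS3 were thus neighbours in level whose libraries overlapped. The ratio of CP26A to RARB ran from 3.47 in replicate 5 to 6.89 in replicate 1, and that of RARB to DHRS3 from 0.115 in replicate 1 to 0.218 in replicate 4.

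**Figure D3:**
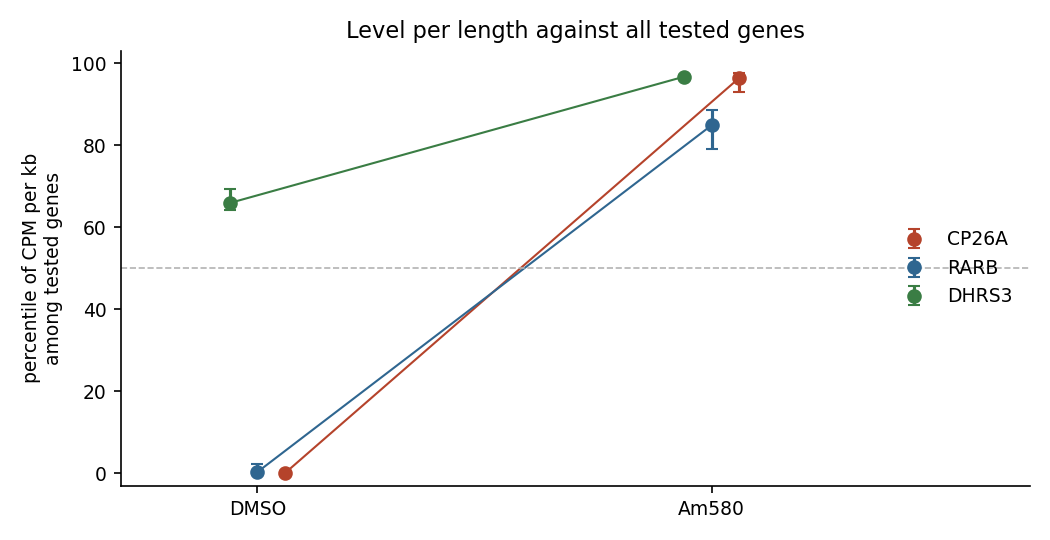
Percentile of the mean CPM per kb of merged exon among the 25879 tested genes (y axis) for CP26A, RARB and DHRS3 in each treatment, with bars up to the highest and down to the lowest single library (for RARB with DMSO the point, at 0.332, lies below every single library, at 0.711 to 2.34) and the dashed line at 50. CP26A and RARB move from the bottom of the range with DMSO to the 96.3rd and 84.9th percentile with Am580, and DHRS3 from the 65.9th to the 96.7th. CP26A and RARB passed the count filter through the Am580 libraries alone, so their place with DMSO follows from the filter.

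Among the 6 Am580 blastemas the genes varied to different degrees. The highest library over the lowest was 2.96-fold for CP26A, 2.02-fold for RARB and 1.405-fold for DHRS3. On the log2 CPM scale the SD between Am580 libraries was 0.65 for CP26A, 0.40 for RARB and 0.20 for DHRS3, while counting error alone would give 0.021, 0.039 and 0.014. The spread of CP26A was larger than that of 95.6% of 1517 genes within a factor of 2 of its level. RARB stood above 87.3% of 4944 such genes and DHRS3 above 51.1% of 724, so the enzyme with the narrow spread varied about as much as a typical gene of its level. In the DMSO libraries the log2 SD of DHRS3 was 0.13, with a highest library 1.25 times the lowest.

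Some Am580 libraries held like ranks for the 3 genes and some did not. Replicate 6 was the lowest Am580 library for all 3 genes, replicate 2 ranked 1 for CP26A and RARB and 2 for DHRS3, and replicate 1 ranked 1 for DHRS3, 3 for CP26A and 5 for RARB. Correlations were computed on log2 CPM over the 6 Am580 libraries for the 3 pairs, with exact permutation tests, two-sided on the absolute correlation, and Benjamini-Hochberg adjustment over the pairs.

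CP26A and DHRS3, the enzymes, had the highest correlation, with Pearson r = 0.88 (exact permutation p = 0.0333, adjusted p = 0.1) and Spearman rho = 0.83 (exact permutation p = 0.0583, adjusted p = 0.175). For CP26A and RARB, r was 0.76 (exact permutation p = 0.0986, adjusted p = 0.148) and rho was 0.71 (exact permutation p = 0.136, adjusted p = 0.204). For RARB and DHRS3, r was 0.48 (exact permutation p = 0.321, adjusted p = 0.321) and rho was 0.37 (exact permutation p = 0.497, adjusted p = 0.497). None of the pairs passed after adjustment.

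Without replicates 5 and 6, the libraries farthest from the median of CP26A, r fell to 0.45 for CP26A with DHRS3 and to 0.47 for CP26A with RARB. These are the 2 libraries in which CP26A was lowest, and taking out the end of a range tends to lower r by itself. With replicate 5 alone left out, r was 0.85 for CP26A with DHRS3 and 0.76 for CP26A with RARB. With replicate 6 alone left out, r was 0.78 and 0.60. RARB with DHRS3 turned to -0.34 without replicates 2 and 6, the farthest from the median of RARB. Leaving out replicate 1, in which DHRS3 was high and RARB low, moved r the other way. Without replicate 1, r was 0.96 for CP26A with DHRS3, 0.90 for CP26A with RARB and 0.93 for RARB with DHRS3, each with an adjusted exact permutation p of 0.0417. For each pair this was the only 1 of 6 runs with 1 library left out whose adjusted p was under 0.05. Replicate 1 was picked out for lying off the trend, so these p are not read as a test.

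**Figure D4:**
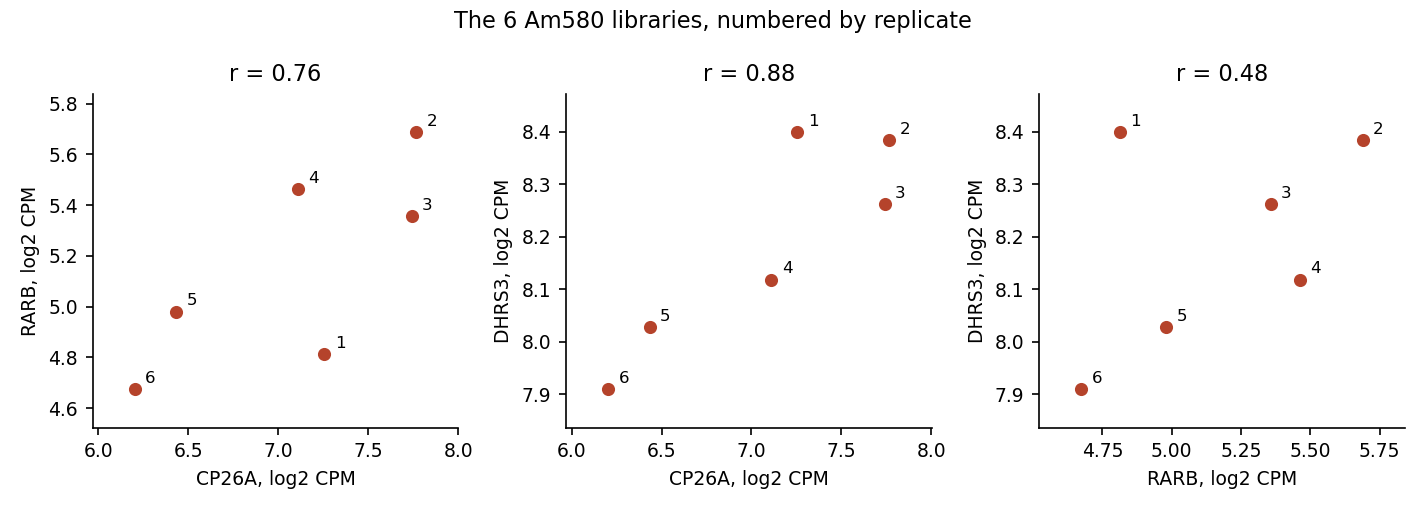
Log2 TMM-normalized CPM (both axes) of CP26A, RARB and DHRS3 against each other in the 6 Am580 libraries, each point 1 library numbered by replicate, with Pearson r above each panel. Replicates 5 and 6 sit at the low end of CP26A in both of its panels, and replicate 1 lies off the trend wherever RARB is plotted.

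The levels with Am580 were also set against properties of the libraries. No relation passed after adjustment among the 27 that were computed, each gene against total counts and 8 summed marker lists. Total counts were lower where the genes were higher, with r = -0.81 for CP26A (exact permutation p = 0.0556, adjusted p = 0.525), -0.64 for RARB (exact permutation p = 0.179, adjusted p = 0.605) and -0.77 for DHRS3 (exact permutation p = 0.0778, adjusted p = 0.525). Spearman rho was -0.71 for CP26A and for RARB (exact permutation p = 0.136 for each) and -0.66 for DHRS3 (exact permutation p = 0.175). Without the 2 libraries whose depth lay farthest from the median, r was -0.15 for CP26A, -0.46 for RARB and -0.38 for DHRS3. DHRS3 was higher where the summed muscle markers were higher (r = 0.82, exact permutation p = 0.0653, adjusted p = 0.525, rho = 0.89, exact permutation p = 0.0333). For these markers r was 0.72 without the 2 libraries farthest from the median. RARB was lower where the epidermis markers were higher (r = -0.67, exact permutation p = 0.118, adjusted p = 0.531, rho = -0.89, exact permutation p = 0.0333, and r = -0.67 without 2 libraries). With the erythroid markers RARB had r = 0.70 (exact permutation p = 0.117, adjusted p = 0.531, and r = 0.32 without 2 libraries).

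DHRS3 was lower where the osteoclast markers were higher (r = -0.88, exact permutation p = 0.00694, adjusted p = 0.1875, rho = -0.83, exact permutation p = 0.0583, and r = -0.77 without 2 libraries). The summed level of the 10 muscle marker symbols that the assembly carried was 7712 to 25374 CPM with Am580 and 11420 to 27612 CPM with DMSO, and Am580 replicate 1 had the highest sum of the Am580 libraries. Over the DMSO libraries, DHRS3 had r = -0.29 with the muscle markers (exact permutation p = 0.572, rho = -0.37, exact permutation p = 0.497) and r = -0.33 with the osteoclast markers (exact permutation p = 0.56, rho = -0.26, exact permutation p = 0.658). The highest of the 8 lists there was the mesenchyme list (r = 0.84, exact permutation p = 0.0306, adjusted p = 0.244, rho = 0.66, exact permutation p = 0.175), and r turned to -0.62 without the 2 libraries farthest from its median. The part of depth or of cell makeup in the levels of CP26A, RARB and DHRS3 was not tested.

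Across genes, CP26A and DHRS3 stood high in each other's ranking of likeness. Among the 20359 genes whose mean with Am580 reached 1 CPM, DHRS3 ranked 97 by r with CP26A, and CP26A ranked 244 by r with DHRS3. RARB ranked 455 for CP26A, while for RARB itself CP26A ranked 651 and DHRS3 ranked 3374. These ranks describe 6 shared libraries, and genes are not independent of each other.

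None of the 9 genes closest to CP26A, RARB or DHRS3 by r was called between treatments, beside 14.1% of all tested genes. These genes are too few to be read against that share. For CP26A they were TMEM63B, a membrane channel gene, with r = 0.99, the unannotated MSTRG.14847 with r = 0.99, and MSTRG.12966, named palladin-like, with r = 0.99. TMEM63B ran from 24.5 CPM in Am580 replicate 6 to 31.9 CPM in replicate 2, the same lowest and highest libraries as CP26A, over a much narrower range. For RARB they were ITGB8, an integrin subunit gene, with r = 0.99, the unannotated MSTRG.28985 with r = 0.99, and MSTRG.16415 with r = 0.98. For DHRS3 they were GPD1 and PFKFB1, genes of glycerol phosphate and glycolytic metabolism, with r of 0.998 and 0.994, and SDHAF2, an assembly factor of succinate dehydrogenase, with r = 0.99. Adjusted p between treatments, by edgeR's quasi-likelihood test, was 0.12 to 0.99 for these 9 genes. They were picked for the highest r among 20359 genes over 6 libraries. Their high r, and the lowest and highest libraries that TMEM63B shares with CP26A, follow from that choice.

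The other genes that were higher with Am580 correlated with these genes in both directions, as all tested genes did. The medians below are of signed r, so they do not measure the strength of correlation. Over the 850 genes called higher with a log2 fold change of at least 1, the median r with CP26A was -0.08, with RARB -0.03 and with DHRS3 -0.14. Over all tested genes these medians were -0.02, 0.01 and -0.05. For the genes called higher, the lower and upper quartiles of r were -0.36 and 0.26 with CP26A, -0.38 and 0.36 with RARB, and -0.47 and 0.29 with DHRS3. Over all tested genes they were -0.29 and 0.26, -0.36 and 0.36, and -0.43 and 0.37. Over the 723 genes called lower with a log2 fold change of at most -1, the medians were -0.28 for CP26A, -0.13 for RARB and -0.43 for DHRS3.

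The rest of the retinoid pathway was read from a list of 49 other symbols, of which the assembly carried 30 by name, on 36 genes. Of these genes 29 were tested and 10 were called by edgeR's quasi-likelihood test, beside 14.1% of all tested genes. With Am580, 6 were higher, beside 6.93% of all tested genes, and 4 were lower, beside 7.21%. NRIP1, among those higher, passed the count filter through its Am580 libraries alone. The median log2 fold change of the 29 genes was -0.08, against 0.00 over all tested genes. The largest of the 29 was 3.32 for NRIP1, against 4.01 for DHRS3 and 8.34 for RARB. CYP26B1, CYP26C1, RARA, RARG and RXRG are carried under no gene of that name and were not analysed here.

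Among receptors, the retinoid X receptors that pair with RARs on DNA were both higher. RXRA rose from 16.4 ± 2.19 to 51.2 ± 7.76 CPM (SD, n = 6 each), with no overlap between treatments (log2 fold change 1.64, SE 0.12, adjusted p = 1.47e-06). RXRB rose by less, from 50.9 ± 2.94 to 62.7 ± 7.54 CPM, and its treatments overlapped (log2 fold change 0.30, SE 0.08, adjusted p = 0.0312). The call of RXRB was lost in 6 of 12 leave-one-out fits. Among the 6 Am580 libraries RXRA had r = 0.85 with RARB, 0.58 with CP26A and 0.16 with DHRS3.

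The called genes among the enzymes that oxidize retinol and retinaldehyde did not all move in 1 direction. These are the reactions that DHRS3 opposes and that supply the substrate of CP26A. Of 4 tested genes of retinol oxidation 1 was called lower. Of 3 of retinaldehyde oxidation 1 was called higher and 1 lower. Among all tested genes 6.93% were called higher and 7.21% lower, and these genes are too few to be read against those shares. RDH10, which makes retinaldehyde from retinol, fell from 51.3 ± 7.05 to 34.2 ± 3.22 CPM (log2 fold change -0.59, SE 0.10, adjusted p = 0.00137), and its treatments did not overlap. ALDH1A3, which makes retinoic acid from retinaldehyde, fell from 32.0 ± 6.98 to 15.4 ± 5.62 CPM (log2 fold change -1.05, SE 0.23, adjusted p = 0.00706). ALDH1A1, with the same activity, rose from 0.967 ± 0.6196 CPM in the DMSO libraries to 2.34 ± 0.603 CPM (log2 fold change 1.27, SE 0.38, adjusted p = 0.0405). That call was lost in 9 of 12 leave-one-out fits. ALDH1A2 was at 4.63 ± 2.43 and 3.69 ± 1.33 CPM and was not called (log2 fold change -0.33, SE 0.35, adjusted p = 0.635). By the same test ADH4 (log2 fold change -0.30, SE 0.25, adjusted p = 0.523) and DHRS9 (-0.39, SE 0.59, adjusted p = 0.745) were not called. Nor was RDH5 (0.22, SE 0.48, adjusted p = 0.833). Within Am580, RDH10 had r = 0.87 with DHRS3 although the treatments moved these genes in opposite directions.

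DHRS3 itself reduces retinaldehyde. None of the 6 tested list genes of retinaldehyde reduction or retinol esterification was called, and none of the 5 of retinoid binding and uptake. By the same test 1 and 2 of them, respectively, had an unadjusted p under 0.05, and DESeq2 and limma-voom called 0 of either. Of 7 coregulator genes, 3 were called. These counts by role stand beside 14.1% called among all tested genes, and are too small to be read against it. NCOA3, a coactivator, rose from 13.8 ± 1.995 to 25.8 ± 4.98 CPM (log2 fold change 0.90, SE 0.14, adjusted p = 0.000822), and NCOA2, another coactivator, fell by 0.24 on the log2 scale (SE 0.07, adjusted p = 0.0331), a call lost in 7 of 12 leave-one-out fits. NRIP1, a corepressor that retinoic acid induces in mammalian cells, had 0 to 4 counts in the DMSO libraries and 24 to 29 in the Am580 libraries. Its fitted log2 fold change, 3.32 (SE 0.37, adjusted p = 5.41e-05), rests on those few counts. NRIP1 passed the count filter only through the Am580 libraries, so this p is not read as a test.

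Of the genes listed as responders named for retinoic acid or known from it, TGM2, a transglutaminase induced by retinoids in mammalian cells, rose from 238 ± 69.7 to 828 ± 182 CPM. Its log2 fold change was 1.802 (SE 0.21, adjusted p = 7.59e-05), with no overlap between treatments. RAI14 fell by 0.49 on the log2 scale (SE 0.13, adjusted p = 0.0277), a call lost in 3 of 12 leave-one-out fits. Among the Am580 libraries TGM2 had r between -0.49 and -0.18 with CP26A, RARB and DHRS3.

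**Figure D5:**
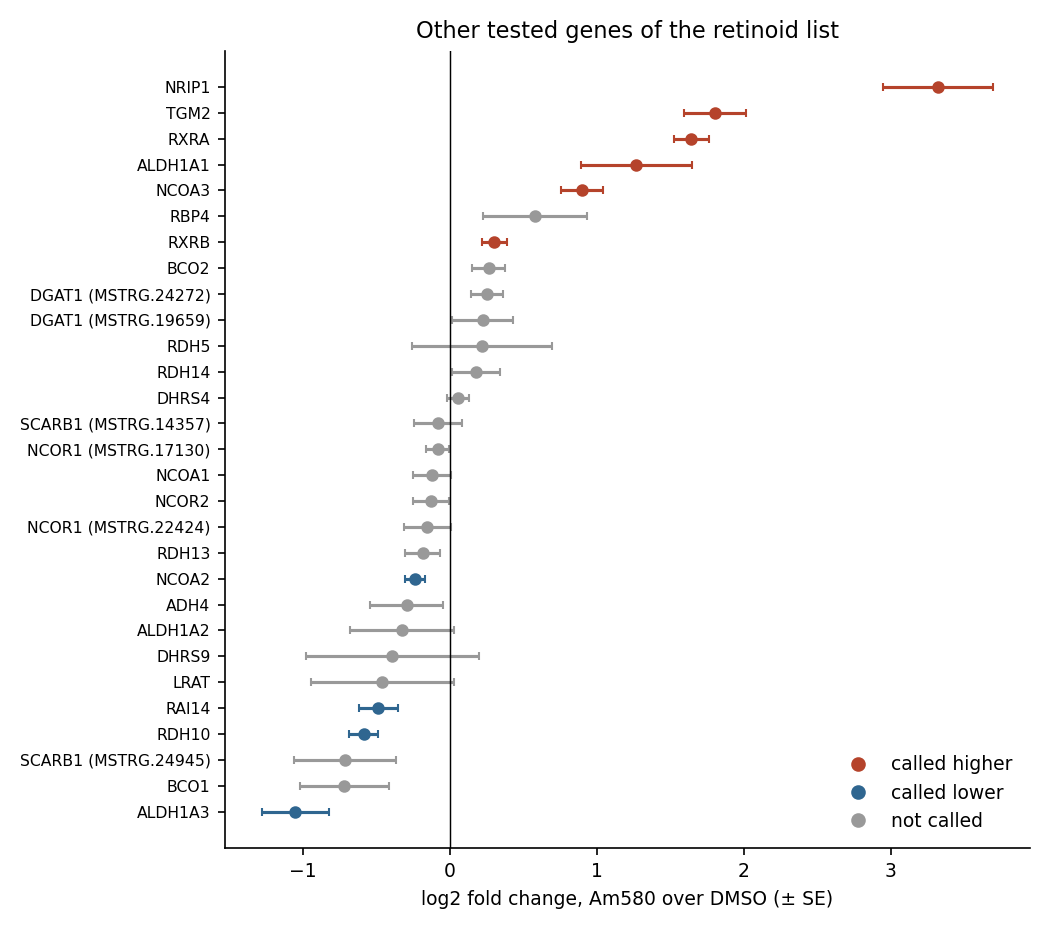
Log2 fold change of Am580 over DMSO (x axis, points, with bars of ± 1 SE) for the 29 other tested genes of the retinoid list, ordered by value, red where called higher, blue where called lower and grey where not called. NRIP1, TGM2 and RXRA lead the 6 genes called higher, and ALDH1A3 is the lowest of the 4 called lower. NRIP1 passed the count filter through the Am580 libraries alone.

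Of the tested neighbours of CP26A, RARB and DHRS3 on their scaffolds, 1 of 3 was called, beside 14.1% of all tested genes. Beyond CP26A, the next gene LOC102577027 lay 293283 bases away and held 0 to 1 counts in the DMSO libraries and 0 to 4 in the Am580 libraries, too few to be tested. In the RefSeq gene order of another axolotl assembly, UKY_AmexF1_1, CYP26C1 lies in this place, between CYP26A1 and EXOC6. The identity of LOC102577027 was not established here. EXOC6, an exocyst subunit gene 737919 bases from CP26A on the same strand, rose from 5.51 ± 0.601 to 9.54 ± 1.19 CPM (log2 fold change 0.79, SE 0.11, adjusted p = 0.000281), with no overlap between treatments. The gene on the opposite strand that ends 59 bases beyond RARB, LOC108719958, was at 84.6 ± 12.5 and 80.95 ± 9.5 CPM (log2 fold change -0.06, SE 0.11, adjusted p = 0.775). In the same RefSeq order TOP2B adjoins RARB, and whether LOC108719958 is that gene was not established here.

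Before DHRS3, at a distance of 68013 bases, lay MSTRG.5213, an unannotated locus with no strand assigned. Its counts were 0, 9, 15, 16, 0 and 0 in DMSO replicates 1 to 6 and 83, 46, 0, 51, 49 and 72 in Am580 replicates 1 to 6. It was thus at 0 in 3 DMSO libraries and in Am580 replicate 3, in which DHRS3 was in the middle of its range. The locus was not called (log2 fold change 2.73, SE 0.97, adjusted p = 0.085), and 19 of 21 alternative runs did not call it either. With limma-voom, adjusted p was 0.333. It was called without Am580 replicate 3 (adjusted p = 0.0283), the only 1 of 12 leave-one-out fits to do so. That library was picked out for its count of 0, so this p is not read as a test. Over all 12 libraries, edgeR's current quasi-likelihood form also called it (adjusted p = 0.0335).

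Total counts per library were 27226012 to 40794002 with DMSO and 34279044 to 43793138 with Am580. In each list of markers the counts of genes called are set beside 7.21% called lower and 6.93% called higher among all tested genes. Mesenchyme markers, with 1 of 9 tested genes called lower, summed to 11399 to 19023 CPM with DMSO and 8475 to 14134 CPM with Am580, so these markers were present in every library. Osteoclast markers, with 8 of 8 tested genes called lower, summed to 2414 to 3657 CPM with DMSO and 371 to 804 CPM with Am580, and epidermis markers, of which 2 of 8 tested genes were called lower, summed to 542 to 730 CPM against 386 to 513 CPM. The summed levels of both lists thus separated the treatments, as did CP26A, RARB and DHRS3, and their part in these levels was not tested. Of 8 tested macrophage markers 2 were called higher and 3 lower, and their sums, 1889 to 2344 CPM with DMSO and 1522 to 2101 CPM with Am580, overlapped. The sums of muscle markers, 11420 to 27612 CPM with DMSO and 7712 to 25374 CPM with Am580, overlapped between treatments and reached above those of the mesenchyme list. Sums over lists of unlike genes do not give the share of a tissue.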

How the data were processed

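RNA libraries were poly-A selected and stranded. Per the methods of the study, the authors used Trimmomatic to trim reads and HISAT2 to align them to AmexG_v3.0.0. Transcripts came from StringTie, merged with the reference genes, and featureCounts (reverse stranded) gave the read pairs per gene over its exons. How reads shared by paralogs were treated is not given in the sources used here. The deposited counts are whole numbers without normalization. A deposited signal for 25685 genes equals TMM-normalized CPM of the same counts (largest relative difference 5e-15) and served only for that check. The deposited assembly gave names and 1-based positions.

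The filter on low values asked for 10 or more counts in 6 or more libraries. Treatments were compared over all 12 libraries, without covariates, with TMM factors and the quasi-likelihood F test (legacy form) of edgeR 4.0.16 in R 4.3.3, and Benjamini-Hochberg adjusted p under 0.05 made a call. Fits that left out a library kept the same genes. Log2 CPM used a prior count of 2. Alternatives used limma 3.58.1 and DESeq2 1.42.0, other normalizations, filters and prior counts, another gene length and background, the replicate number as a block, and each library left out. Correlations and exact permutation tests used numpy 2.4.6, with ranks from scipy 1.17.1. The steps were tested on simulated data. There the fit called 47 of 99 tested genes changed 2-fold and 86 of 95 changed 4-fold, and 5.67% of its calls were false. Those 99 and 95 were the only changed genes among 25421 tested in the simulation, while 14.1% were called in the data. The shares recovered may therefore differ in the data. A gene that was not called may still have changed. At these depths 3 counts are 0.0637 to 0.111 CPM, which covers counting error only. P-values between treatments set the difference against the spread between these animals. The Am580 animals were chosen for duplication, so this spread need not be that of all treated animals. Exact permutation p-values give the share of re-pairings of the libraries with a correlation at least as large.

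CP26A, RARB and DHRS3, the gene lists and the tests were chosen with earlier results of these data known. Other genes named are those of the retinoid list that were called, every CYP26, RAR and RXR gene, RDH10, the nearest tested neighbour on each side, and the 3 genes with the highest r with each gene over the Am580 libraries. ALDH1A2, ADH4, DHRS9, RDH5 and LOC102577027 were added after their values were seen.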

Additional observations from a re-analysis of the deposited data

Results flagged for a closer look

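Dixon's test, run on the logarithm of CPM plus 0.1, picked out 3 libraries that stood apart from the other 5 of their treatment. All were for genes around CP26A, RARB and DHRS3, and none for these genes themselves. On the logarithm, gaps at low values count for more than on the plain CPM printed below. Chance alone picks out about 1 in 20 groups. The number of groups tested is not given here, so the 3 libraries are not read against that share. MSTRG.5213, the locus before DHRS3, was at 0 CPM in Am580 replicate 3 while the rest of that treatment had 1.04 to 2.53 CPM. NCOA3 was at 16.9 CPM in Am580 replicate 1, below the 25.5 to 32.2 CPM of the others. NRIP1 was at 0.509 CPM in Am580 replicate 5, below 0.679 to 0.732 CPM in the others, a difference between counts of 24 and of 24 to 29 at unlike depths.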

How the results depend on the processing

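The log2 fold changes of RARB (8.19 to 8.61) and DHRS3 (3.96 to 4.06) and the log2 lower bound for CP26A (10.52 to 10.80) kept their size under every alternative run. Leaving out 1 library moved them within 8.19 to 8.61, 3.96 to 4.06 and 10.52 to 10.80. The percentiles of level with Am580 lay at 95.9 to 96.6 for CP26A, 83.5 to 85.6 for RARB and 96.5 to 96.8 for DHRS3, and that of DHRS3 with DMSO moved to 62.6 when only genes holding a reference transcript formed the background. The correlations among the Am580 libraries were the least stable values. Scaling by library size alone gave r = 0.94 for CP26A with DHRS3 (adjusted exact permutation p = 0.0167). Leaving out 1 Am580 library gave 0.78 to 0.96 for this pair, 0.60 to 0.90 for CP26A with RARB and 0.12 to 0.93 for RARB with DHRS3, which turned to -0.34 with 2 libraries left out. The cause was not tested. With library size alone, r of TMEM63B with CP26A was 0.87, and r of GPD1 and of PFKFB1 with DHRS3 was 0.92 each. The other genes named for their r were then at 0.96 or above. All genes called numbered 3018 to 4707 over the alternatives. Of the retinoid list 7 to 10 genes were called, 4 to 6 higher and 2 to 4 lower. Those lower were 2 with library size alone, and 2 to 4 with 1 library left out (2 without DMSO replicate 2 or 3). RXRA, NCOA3, NRIP1, TGM2, RDH10 and ALDH1A3 were called in all 12 leave-one-out fits, RAI14 in 9, RXRB in 6, NCOA2 in 5 and ALDH1A1 in 3. The log2 fold change of LOC108719958 was -0.13 to 0.011 with 1 library left out, above 0 only without DMSO replicate 6, and it was called in no fit.

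With the replicate number as a block, the log2 fold changes were 8.33 for RARB and 3.999 for DHRS3, 3440 genes were called, and 10 of the retinoid list. The deviations of same-numbered libraries correlated at -0.17 to 0.23, and only replicates 1 and 3 correlated best with their own number. Whether same-numbered libraries share more than a number was not tested.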
